A study of Mus musculus with 31 samples.

Results

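Rad21 chromatin immunoprecipitation sequencing of an engineered CH12F3 line, named i3CBEs in the labels, was compared with the same assay in stimulated CH12F3 cells. The members were chosen by their titles: 3 i3CBEs Rad21 libraries and 4 stimulated CH12F3 Rad21 libraries, of 31 samples in the series, 26 of which come with a peak list. The study asks what cohesin-driven loop extrusion does in IgH class switching.

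CH12F3 is a mouse B lymphoma line that switches its antibody class in culture when given anti-CD40, IL-4 and TGF-β. Both groups received that stimulation for 24 h. The i3CBEs libraries carry the CH12F3 source name and the engineered line as title, and the other 4 carry the title CH12F3NCdel. From what is known of the study, the engineered line has CTCF-binding elements inserted at IgH; the labels neither expand the name nor give the place. All samples are labelled AID-deficient and C57BL/6, and all used the same Rad21 antibody (Abcam ab992). The cell type label calls every Rad21 sample a splenic mature B cell, which goes against the CH12F3 source name. The labels do not say whether the libraries of a line came from separate cultures or clones, so every p-value below measures the spread between libraries, which may be technical. Unstimulated CH12F3 (0 h, 3 Rad21 libraries) shares the fit across bins, and splenic B cells (3 libraries with 48 h of anti-CD40 and IL-4 and 3 without) serve as further libraries to look sites up in.

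Rad21 is a subunit of cohesin, the ring-shaped complex that extrudes chromatin into loops. Extrusion is known to slow or stop at CTCF bound to its elements, so Rad21 piles up there, and in B cells also at active promoters and enhancers. In IgH, the end of the locus downstream of the constant genes holds the 3′ regulatory region and a tandem group of CTCF-binding elements, and class switching joins switch regions that loops bring together.

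The data are lists of broad peaks on mouse build mm9, with no read counts, so sequencing depth is unknown. The i3CBEs lists held 42659 to 97738 peaks and the stimulated CH12F3 lists 95464 to 271662, which overlap. To compare lists of equal length, each was ranked by −log10 p over the 21 main chromosomes and its first 20000 peaks were kept. These are called top peaks, and rank 1 is the strongest. These top peaks covered 5.53, 5.75 and 6.31 Mb in i3CBEs and 10.5, 8.30, 10.7 and 7.54 Mb in stimulated CH12F3. Every i3CBEs list therefore had narrower top peaks, and the 2 groups did not overlap (two-sided exact permutation p = 0.057, the smallest that 3 against 4 can give; 0.064 adjusted over 9 measures). Each group also had its own control library, number 156 for i3CBEs and 98 for stimulated CH12F3 in the peak names, so line and control cannot be told apart.

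At IgH, one Rad21 site was listed in every library of the engineered line and in none of its parent. It spans 12:114525499-114525876, 378 bp. In i3CBEs it ranked 7101, 8087 and 7381, with authors' fold enrichments of 10.0, 8.62 and 8.38 and widths of 365, 372 and 342 bp. No peak of any rank overlapped it in the 4 stimulated or the 3 unstimulated CH12F3 lists. The 3 i3CBEs libraries thus placed it in a narrow band of ranks well inside the stronger part of their lists, while no CH12F3 list held a peak there. In spleen, 2 of 3 stimulated lists and 0 of 3 unstimulated lists held a deposited peak there, none of them a top peak.

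The 10 kb bin that holds this site, 12:114520001-114530000, was covered over 3.65, 3.72 and 3.42% of its length in i3CBEs and over 0% in each stimulated CH12F3 library. The groups do not overlap. In a limma fit over 22898 bins and the 10 libraries of the CH12F3 lineage, the difference was 3.60 percentage points (SE 0.368, Benjamini-Hochberg adjusted p = 0.0079). By p it came 3rd among the bins that were higher in i3CBEs. Every CH12F3 library, stimulated or not, had 0% there by top peaks. The bin thus passed the filter of 2 or more libraries through i3CBEs alone, and its p and place only describe it. With bins covered in 4 or more libraries it was not tested. Of all bins tested, 0.179% were called higher and 0.231% lower. The exact permutation p for this bin alone was 0.057, and 0.26 adjusted over the 9 covered IgH bins. Among the alternatives that lost the limma call were every deposited peak counted (adjusted p = 0.13) and libraries with high code numbers alone, a choice added after seeing the data (3 i3CBEs and 2 stimulated CH12F3 libraries, adjusted p = 0.077). The difference itself was 3.60 points in both. A replicate block in the fit lost the call too.

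**Figure D1:**
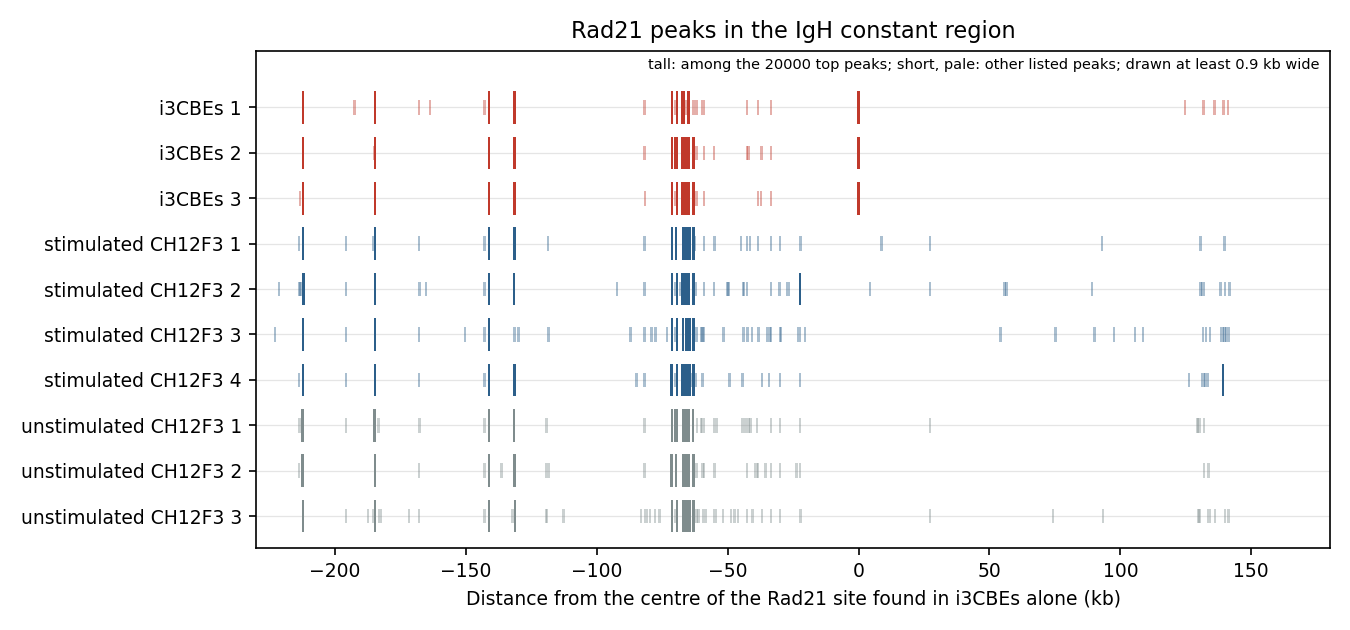
Rad21 peaks in the 400 kb of the IgH constant region, one row per library, i3CBEs above stimulated and unstimulated CH12F3; the x axis gives the distance in kb from the centre of the site found in i3CBEs alone, tall bars are top peaks and short pale bars other listed peaks. All 3 i3CBEs rows have a tall bar at 0, where none of the 7 CH12F3 rows has any bar, and every row has the group of peaks between −71.3 and −63.1 kb.

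Across the region 12:114300001-114700000, 9 of 40 bins were covered by a top peak in either line and 7 were covered in enough libraries for the fit. Of the 9, 1 was higher and 1 was lower in i3CBEs without overlap between groups. Over all bins of the fit, 0.777% were higher and 23.1% lower in that sense, so a single lower bin is near the background. It was 12:114380001, covered over 2.40, 2.32 and 2.18% in i3CBEs and 3.65, 3.62, 2.61 and 3.65% in stimulated CH12F3. With every top peak set to 400 bp around its centre, no IgH bin was lower in that sense.

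The strongest Rad21 sites of IgH were common to both lines. They form a dense group at 12:114454167-114462867, at the downstream end of the locus, centred −71.3 to −63.1 kb from the i3CBEs site, towards lower coordinates. The site at 12:114457968 ranked 1894, 1252 and 829 in i3CBEs and 3023, 1416, 5029 and 865 in stimulated CH12F3. Its neighbour at 12:114459372 ranked 5480, 3916 and 3382 in i3CBEs and 983, 2405, 5101 and 1732 in stimulated CH12F3. At both, the ranks of the lines overlap, and both lie among the stronger sites of the genome in every library.

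Coverage over the group ran lower in i3CBEs without separating the lines. The bin 12:114450001 was covered over 9.23, 12.5 and 13.3% in i3CBEs, against 27.0, 21.1, 19.9 and 12.8% in stimulated CH12F3. The next bin, 12:114460001, was covered over 10.2, 11.6 and 13.9% in i3CBEs, against 19.7, 17.0, 20.8 and 10.9% in stimulated CH12F3. In both bins the 4th CH12F3 library lay among the i3CBEs values, and the limma adjusted p was 0.25 and 0.30. The median top peak was narrower in every i3CBEs list than in any stimulated CH12F3 list. At a fixed 400 bp per peak, the bin at 12:114450001 differed by 3.00 points in the other direction (exact p = 0.57).

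One site of the group ranked lower in the engineered line. The site at 12:114462359, on the side of the group that faces the i3CBEs site, ranked 47882, 13601 and 17427 in i3CBEs and 8396, 9727, 11742 and 6386 in stimulated CH12F3. The ranks do not overlap, and unstimulated CH12F3, at 10169, 11096 and 7676, sat with its stimulated counterpart. It was a top peak in 2 of 3 i3CBEs libraries and in 4 of 4 stimulated CH12F3 libraries. Over all sites of the genome, 7.1% had every i3CBEs rank weaker, so a single such site is near the background.

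Between that group and the i3CBEs site, some weaker peaks, nearly all beyond rank 20000 and named after their values were seen, also differed. A site at 12:114495226-114495816 had no i3CBEs peak of any rank, and ranked 24766, 30189, 69327 and 26599 in stimulated CH12F3. A site at 12:114503177-114503681, centred −22.4 kb from the i3CBEs site, had no i3CBEs peak either, and ranked 26306, 18344, 48211 and 63739 in stimulated CH12F3. On the other side, a site at 12:114463574-114464032 ranked 22231, 36965 and 31490 in i3CBEs; it was listed in 2 of 4 stimulated CH12F3 libraries, at ranks 67829 and 96803. The first pair was listed in all 3 unstimulated CH12F3 libraries and so was the last. Other weak sites of this stretch were also listed in a single line. Examples are 12:114481440, in 2 of 4 stimulated CH12F3 libraries, and 12:114483677, in 1 of 3 i3CBEs libraries. All of these are weak peaks, and the i3CBEs lists ended at rank 42055 in one library and 52537 in another. A link of these differences to the i3CBEs site was not tested.

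**Figure D2:**
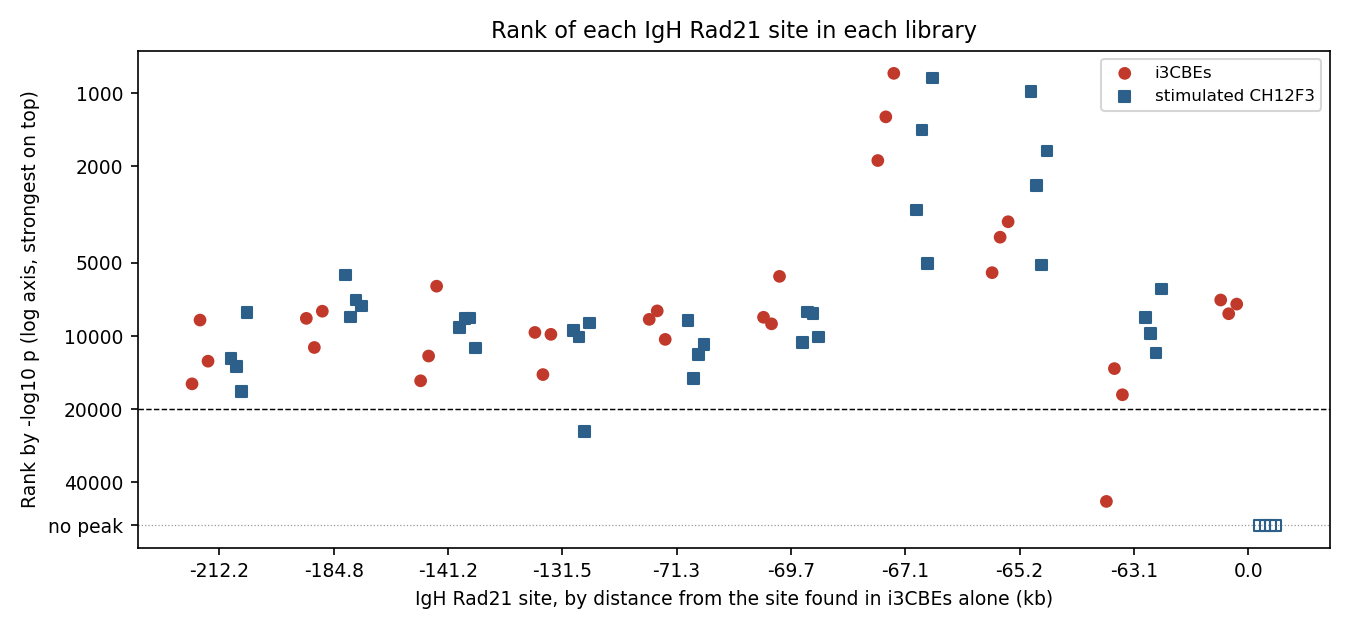
Rank by −log10 p of 10 IgH Rad21 sites in each library, i3CBEs (circles) left of stimulated CH12F3 (squares); the y axis is logarithmic with the strongest rank on top, the dashed line marks rank 20000 and open symbols mark libraries with no peak. The lines overlap at 8 sites and are apart at the last 2, where i3CBEs ranks lower at −63.1 kb and alone has peaks at 0. Over all sites of the genome, 7.1% had every i3CBEs rank weaker and 5.13% every one stronger.

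By top peaks, the lines overlapped in the constant region and were apart in the variable domain. The constant region as a whole held 10, 13 and 12 top peaks in i3CBEs and 10, 12, 8 and 13 in stimulated CH12F3, which overlap. Over all deposited peaks it held 20 to 29 in i3CBEs and 32 to 53 in stimulated CH12F3, without overlap (exact p = 0.057). That is a ratio of means of 0.570, beside 0.395 for the whole lists, so the region was not short of peaks relative to them. The variable domain, 12:114700001-117300000, held 10, 12 and 6 in i3CBEs and 15, 14, 19 and 13 in stimulated CH12F3. These do not overlap (exact p = 0.057, 0.19 adjusted over 10 region measures). Over all deposited peaks the domain held 27 to 56 in i3CBEs and 58 to 149 in stimulated CH12F3, also without overlap. The ratio of means was 0.429, beside 0.395 for the whole lists, so by that measure the domain was not short of peaks either. Of the 25 variable-domain sites with a top peak in any of the 7 libraries, 2 had one in all 7, 10 had none in i3CBEs and 1 had none in CH12F3, beside 14.4% and 13.2% of all sites. At 5 of the 25 every i3CBEs rank was weaker than every CH12F3 rank, and at 0 it was stronger, beside 7.1% and 5.13% of all sites. The best ranked of the 5 was 12:114725936, with ranks 13071, 18350 and 19346 in i3CBEs, against 5737, 10388, 8852 and 6618 in stimulated CH12F3.

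The light chain loci are immunoglobulin loci on other chromosomes. Ig kappa held 39, 30 and 34 top peaks in i3CBEs and 35, 34, 45 and 22 in stimulated CH12F3, which overlap (exact p = 1). Ig lambda was covered over 3.05, 3.12 and 3.98 kb in i3CBEs, against 10.9, 9.61, 18.3 and 5.82 kb in stimulated CH12F3. These do not overlap, with the same exact p of 0.057 and adjusted p of 0.19. The number of Ig lambda peaks was 7, 6 and 6 in i3CBEs and 6, 7, 8 and 6 in stimulated CH12F3, so top peaks were narrower and about as many. Over all deposited peaks the locus held 19 to 42 in i3CBEs and 91 to 224 in stimulated CH12F3, without overlap (exact p = 0.057). The ratio of means was 0.184, beside 0.395 for the whole lists. Ig lambda lies on chromosome 16, which differed as a whole.

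Chromosome 16 held a smaller share of Rad21 top peaks in i3CBEs than in stimulated CH12F3, along its length. It took 3.28, 3.31 and 3.16% of top peaks in i3CBEs, against 3.90, 4.06, 3.94 and 4.07% in stimulated CH12F3. The groups are far apart relative to their spread (3.25 ± 0.077% and 3.99 ± 0.087%, SD, n = 3 and 4), though the exact permutation p of 0.057 adjusts to 0.40 over 21 chromosomes. Unstimulated CH12F3 took 3.95 ± 0.092%, close to its stimulated counterpart, and the spleen groups 3.52 and 3.58% (means of 3). The i3CBEs share was thus below, and the CH12F3 share above, that of splenic B cells. Over all deposited peaks it was 3.08% in i3CBEs, 6.44% in stimulated and 6.59% in unstimulated CH12F3, and 3.96% in stimulated and 4.07% in unstimulated spleen. There the CH12F3 lists lay further from spleen than the i3CBEs lists. These are shares within lists, so which line departed was not tested. With 10000 or 40000 top peaks the difference was larger, at −1.21 and −1.66 points (exact p = 0.057 each). Besides 16 and X, only chromosome 14 had shares without overlap, higher in i3CBEs by 0.215 points. They were 4.975 ± 0.071% in i3CBEs and 4.76 ± 0.101% in stimulated CH12F3 (exact p = 0.057, adjusted p = 0.40).

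Sites present in all 7 libraries showed the same order. The 497 such sites on chromosome 16 had a median rank of 7246, 7869 and 7897 in i3CBEs and 4898, 4671, 4822 and 5275 in stimulated CH12F3 (7671 ± 368 and 4917 ± 257, exact p = 0.057, 0.38 adjusted over 20 chromosomes). On the other autosomes the group means ran between 6038 and 7209 in i3CBEs and between 6254 and 7408 in stimulated CH12F3. By these means chromosome 16 had the strongest common sites of any chromosome in stimulated CH12F3, and weaker ones than any other autosome in i3CBEs. Chromosomes 1 and 18 were also apart, in the other direction and by less (−344 and −542 ranks, exact p = 0.057 each).

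**Figure D3:**
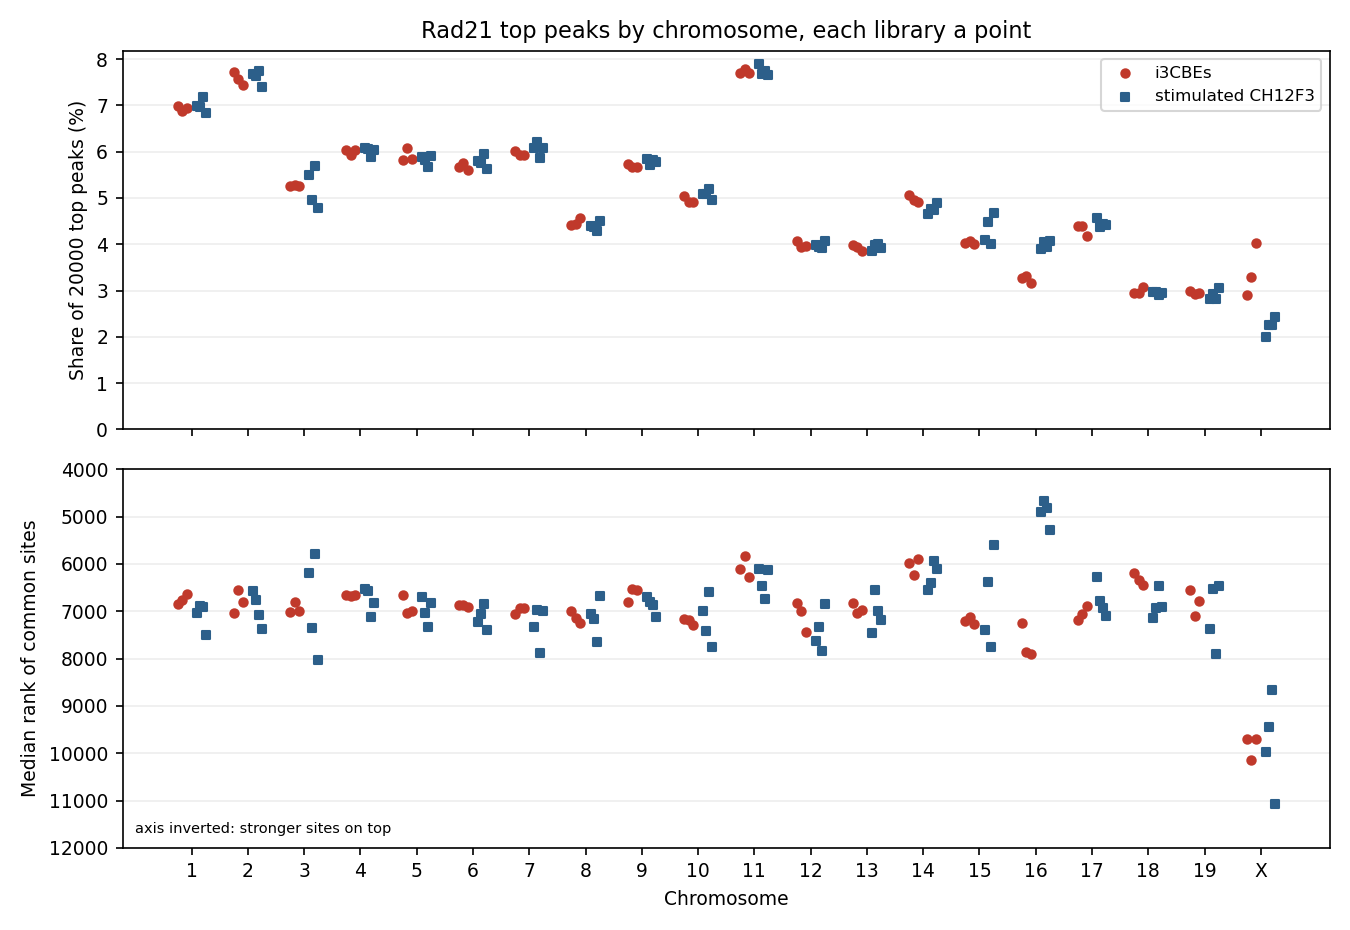
Share of the 20000 top peaks on each chromosome in percent (upper panel) and median rank of the sites common to all 7 libraries (lower panel, axis inverted so that stronger is higher); each point is a library, i3CBEs (circles) left of stimulated CH12F3 (squares), chromosome Y left out. On chromosome 16 the i3CBEs points lie at 3.16 to 3.31% and the stimulated CH12F3 points at 3.90 to 4.07%; on chromosome X only the upper panel separates the lines.

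In windows of 1 Mb, the difference on chromosome 16 was spread out. Of its 53 windows, 51 had a negative difference, with a median difference of −0.32 on the log2(peaks + 1) scale; the medians of the other chromosomes lay between −0.04 and 0.04. Over 1449 windows, limma called 1 higher (0.069%) and 13 lower (0.897%) in i3CBEs, and 9 of the 13 were on chromosome 16. The largest fall was in the window from 16:50000001, with 2, 5 and 4 top peaks in i3CBEs and 11, 12, 10 and 9 in stimulated CH12F3 (log2 difference −1.35, SE 0.210, limma adjusted p = 0.020; named after its values were seen). Among libraries with high code numbers alone, limma called 0 windows in either direction (57 and 102 at an unadjusted p under 0.05), while the difference in the chromosome 16 share was −0.748 points, against −0.742 with all libraries.

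**Figure D4:**
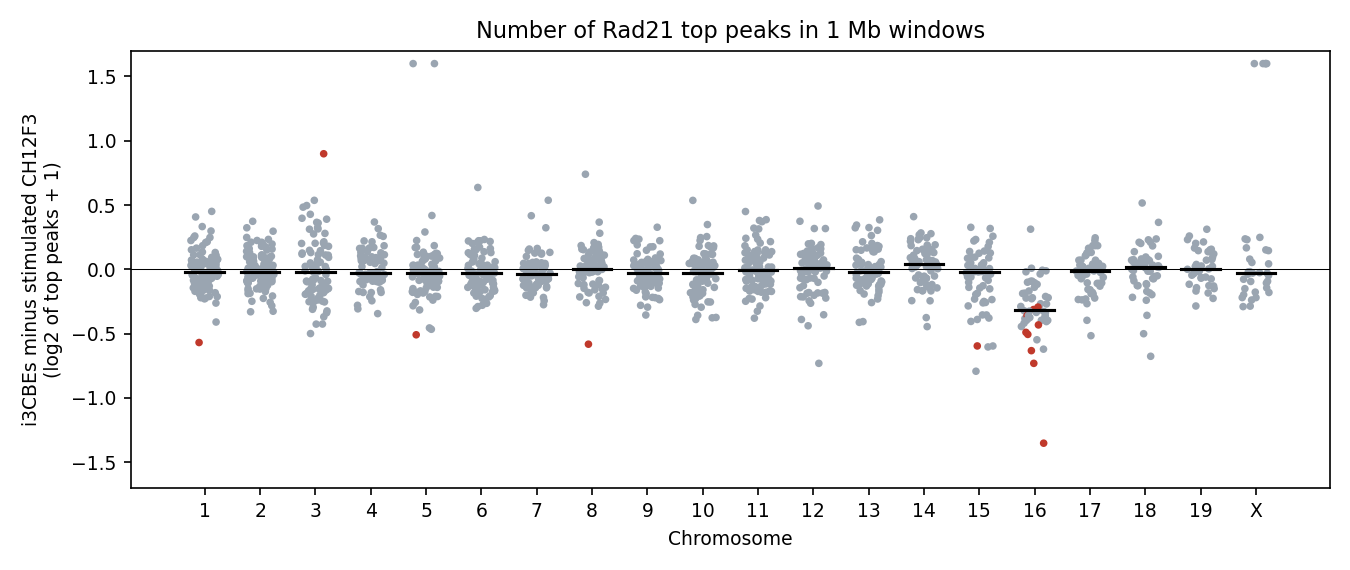
Difference between i3CBEs and stimulated CH12F3 in the log2 number of top peaks (plus 1) in 1449 windows of 1 Mb, by chromosome; red points passed an adjusted p of 0.05 in limma, black lines are medians, and 7 windows beyond 1.6 are drawn at 1.6. Chromosome 16 sits at a median of −0.32 and holds 9 of the 13 lower windows.

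Outside chromosome 16, the window from 15:102000001 had the smallest p of all, with 25, 23 and 22 top peaks in i3CBEs and 35, 36, 37 and 35 in stimulated CH12F3. The libraries within each line differ by at most 3 peaks there, and the lines by at least 10. The log2 difference was −0.60 (SE 0.051, limma adjusted p = 0.0011). The one window called higher, from 3:136000001, had 10, 14 and 11 top peaks in i3CBEs and 6, 5, 6 and 6 in stimulated CH12F3 (log2 difference 0.90, SE 0.137, limma adjusted p = 0.020). Its call was lost without stimulated CH12F3 library 1, 2 or 3 or i3CBEs library 3 (adjusted p = 0.063, 0.061, 0.051 and 0.064).

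Chromosome X carried more top peaks in the engineered line: 2.90, 3.29 and 4.02% of all in i3CBEs, against 2.0, 2.27, 2.25 and 2.43% in stimulated CH12F3 (exact p = 0.057, adjusted p = 0.40). The difference was 1.17 points, and 0.116 points with the 10000 strongest peaks of each list (exact p = 0.51), so the excess was among the weaker top peaks. It lay in 5 windows, those from 3, 4, 30, 31 and 32 Mb, which were chosen after their values were seen. They held 151, 278 and 395 top peaks in i3CBEs, against 3, 40, 14 and 120 in stimulated CH12F3. The rest of the chromosome held 428, 380 and 409 top peaks in i3CBEs, against 396, 413, 436 and 365 in stimulated CH12F3, which overlap (exact p = 0.91).

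On chromosome 5, the window from 5:15000001, also chosen after its values were seen, had 28, 61 and 50 top peaks in i3CBEs and 3, 11, 5 and 26 in stimulated CH12F3 (limma adjusted p = 0.12).

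The X windows varied much within each line. The window from X:30000001 had 29, 63 and 82 top peaks in i3CBEs and 0, 3, 2 and 15 in stimulated CH12F3 (log2 difference 3.86, SE 0.795), and did not pass (limma adjusted p = 0.063). Splenic B cells had 0 to 4 top peaks in the 5 windows together. The higher bin with the smallest limma p, X:31970001, lies there. By top peaks it was covered over 21.9, 24.8 and 21.7% in i3CBEs and 0% in each of 4 stimulated CH12F3 libraries (difference 22.8 points, SE 0.975, limma adjusted p = 8.2e-06). Unstimulated CH12F3 also had 0%, so the bin passed the filter of 2 or more libraries through i3CBEs alone. Its limma call was lost in 5 of 19 alternatives. Counting every deposited peak, it was covered over 45.0 ± 9.31% in i3CBEs and 36.3 ± 26.9% in stimulated CH12F3, so the stretch was not bare in the parent line but held peaks ranked below 20000.

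Over the whole genome, 41 bins were called higher and 53 lower in i3CBEs. In every one of them the groups did not overlap. Of the 41 higher bins, 35 had no top peak in stimulated CH12F3, but 3 alone had no deposited peak there, the IgH bin among them. In unstimulated CH12F3, 2 of the 41 had a top peak. Most higher bins thus passed the filter of 2 or more libraries through i3CBEs alone, and their p only describes them. With bins covered in 4 or more libraries, 3 were called higher and 12 lower. Likewise, 22 of the 53 lower bins had no top peak in i3CBEs. Chromosome X held 10 of the 41, or 1.55% of its 647 tested bins. Of the 53 lower bins, 15 were on chromosome 16 (1.74% of its 860 tested bins) and 10 on chromosome 1 (0.638% of 1568). Chromosome 18 had 4 (0.600% of 667), a share near that of chromosome 1, beside 0.231% over all bins. On chromosome 16, 53.4% of tested bins were lower without overlap, beside 23.1% over all chromosomes, and the median difference was −2.57 points, beside −1.22 over all.

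**Figure D5:**
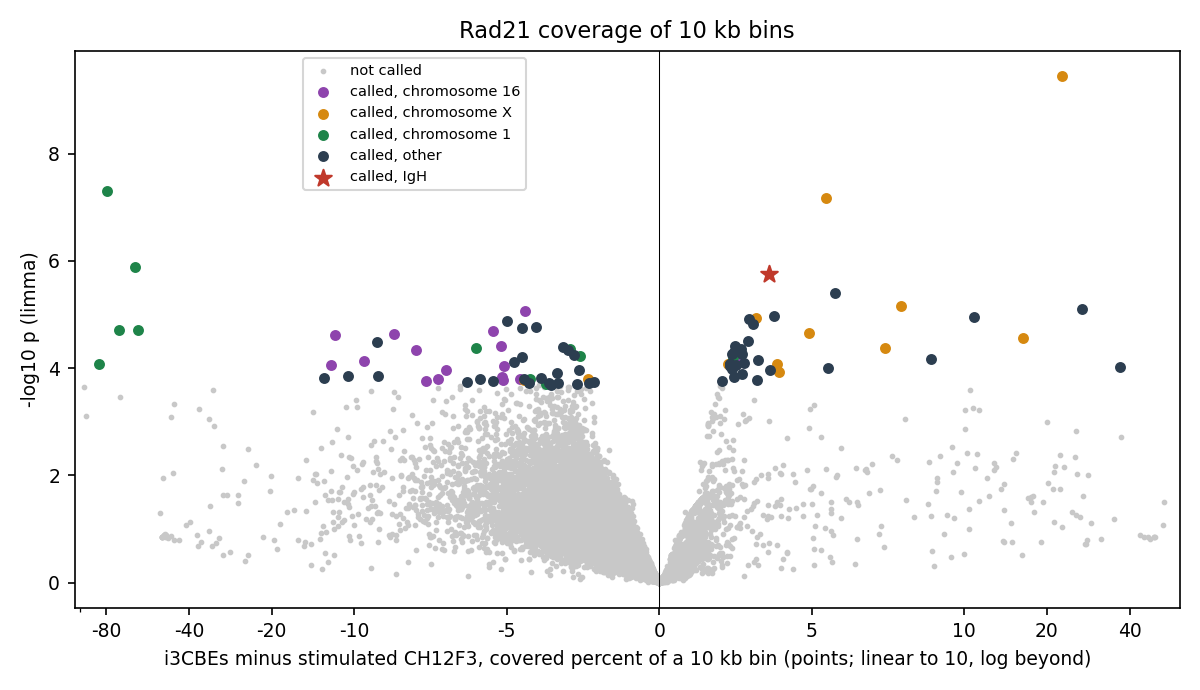
Difference in covered percent of 22898 bins of 10 kb between i3CBEs and stimulated CH12F3 (x axis, linear to 10 points and logarithmic beyond) against −log10 p from limma; coloured points passed an adjusted p of 0.05. The IgH bin (star) lies at 3.60 points, 5 chromosome 1 bins lie below −60, and most uncalled bins lie left of 0 around the median of −1.22.

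The largest falls were in 5 bins of chromosome 1 that top peaks covered over 65.5 to 100% in single libraries of the parent line. The bin 1:85240001 was covered over 9.06, 23.0 and 6.88% in i3CBEs and 100, 97.7, 95.5 and 100% in stimulated CH12F3 (difference −85.3 points, SE 13.6, limma adjusted p = 0.036). The bin 1:87490001 was covered over 0, 0 and 22.5% in i3CBEs and 91.7, 91.6, 81.4 and 83.0% in stimulated CH12F3 (difference −79.4 points, SE 5.60, limma adjusted p = 0.00052). The bins 1:85260001, 1:87500001 and 1:85100001 differed by −71.7, −63.1 and −61.2 points. In spleen the 5 bins went different ways: 1:85240001 was covered over 6.10% with and 7.99% without stimulation and 1:85260001 over 0 and 2.17%, 1:87500001 over 67.0 and 91.0%, 1:87490001 over 35.8 and 80.4%, and 1:85100001 over 32.6 and 88.6% (means of 3). At a fixed 400 bp per peak, the differences at 1:85240001, 1:87500001 and 1:85100001 were 0.62, 2.67 and 3.8 points, in the other direction. Those at 1:87490001 and 1:85260001 were 0 and −1.33 points. A wide peak set to 400 bp covers little of a 10 kb bin, so that setting could not keep falls of this size. It does not show whether the wide stretches differ.

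Beside these falls stands a difference in the sequences on which the lists have peaks. Besides the main chromosomes, the i3CBEs lists had 753, 700 and 604 peaks on unplaced and other sequences, and each stimulated CH12F3 list had 1. Of the i3CBEs peaks, 283, 282 and 242 lay on the unplaced sequence of chromosome 1, where the 4 stimulated CH12F3 lists had 0. Another 213, 213 and 182 lay on that of chromosome 8, where those 4 lists also had 0. Chromosome 8 had 1 bin called lower of 1020 tested. The part of these sequences in the chromosome 1 bins was not tested.

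The next largest lower bins held top peaks in every library of both lines. The bin 16:45020001 was covered over 3.26, 3.79 and 4.59% in i3CBEs and 14.8, 16.6, 15.3 and 15.8% in stimulated CH12F3 (difference −11.7 points, SE 1.61, limma adjusted p = 0.024). The bins 15:99200001, 16:45140001, 14:76550001 and 16:36470001 differed by −12.9, −12.2, −10.6 and −9.67 points; with lists of equal covered length, 14:76550001 differed by 5.12 points the other way. Among higher bins, 10:57680001 was covered over 31.5, 45.8 and 47.3% in i3CBEs and over 0, 0, 0 and 18.0% in stimulated CH12F3 (37.0 points, SE 5.99, limma adjusted p = 0.037). On chromosome 5, 5:15050001 was covered over 21.7, 33.8 and 31.1% in i3CBEs and over 0, 7.76, 0 and 0% in stimulated CH12F3 (26.9 points, SE 3.26, limma adjusted p = 0.021). Other higher bins named by size were X:30480001, 6:47690001, 17:13740001, X:32190001, X:4710001, 5:15120001 and 12:86870001, with differences between 5.53 and 16.4 points. At 6:47690001, 17:13740001, X:32190001, X:4710001 and 12:86870001 every CH12F3 library had 0% by top peaks. Those bins entered the fit through i3CBEs alone. Counting every deposited peak turned the direction at 6:47690001 (−9.74 points) and 12:86870001 (−6.88 points).

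The number of called bins depended on the setting and on single libraries. With lists cut to equal covered length, 1296 bins were called higher and 174 lower; with the 2 lines alone in the fit, 3 and 14. Leaving out 1 library gave 3 to 72 higher and 2 to 211 lower. Without i3CBEs library 1, 2 or 3 the counts were 72 and 11, 10 and 2, and 7 and 4. Without stimulated CH12F3 library 1, 2, 3 or 4 they were 3 and 3, 6 and 14, 4 and 5, and 69 and 211. The IgH bin was called in all 7 of these leave-one-out fits, with adjusted p from 0.0083 to 0.045. It entered each fit through i3CBEs alone, as every CH12F3 library had 0% there by top peaks.

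Merging the top peaks of the 7 libraries gave 29042 sites, of which 13562 were present in all 7. In 128 sites (0.441%) all 3 i3CBEs libraries and none of the CH12F3 libraries had a top peak, and in 222 sites (0.764%) it was the reverse. Ordered by the worst rank among its libraries, the IgH site stood 1st of the 128. Only 5 of the 128 had no deposited peak in any stimulated CH12F3 list, and 125 had one in at least 1 unstimulated CH12F3 list; the IgH site was in the 5 and not in the 125. Chromosome X held 30 of the 128, or 2.67% of its 1123 sites.

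Most of the other i3CBEs sites had a peak of lower rank in stimulated CH12F3. The one ordered next, 1:171277910-171278178, ranked 9586, 9122 and 9503 in i3CBEs, and had a single listed peak in stimulated CH12F3, at rank 64271. The site X:158264176 ranked 6860, 9970 and 9557 in i3CBEs and 22622, 20255, 23954 and 20127 in stimulated CH12F3, all just past the limit of 20000. The site 6:46911266 ranked 5552, 10288 and 6522 in i3CBEs and 46143, 21216, 136573 and 40667 in stimulated CH12F3.

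Of the 222 sites with a top peak in stimulated CH12F3 alone, 28 were on chromosome 16 (2.70% of its 1038 sites), 215 were also a top peak in at least 1 unstimulated CH12F3 library and 12 had no deposited peak in i3CBEs. The strongest by far was 16:50736534-50737395. In i3CBEs it ranked 44122 and 28718 in libraries 1 and 3 and had no peak in library 2, whereas in stimulated CH12F3 it ranked 2097, 1805, 3324 and 2012. All 3 unstimulated CH12F3 libraries had it as a top peak, and every spleen list had a peak there. The next, 15:9356934, ranked 27067, 28940 and 20547 in i3CBEs and 8958, 4116, 5326 and 5934 in stimulated CH12F3. The site 15:101938237 ranked 23998, 25118 and 23549 in i3CBEs and 6263, 9708, 5399 and 3551 in stimulated CH12F3; it lies just before the chromosome 15 window named above.

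Over all top peaks, those of i3CBEs were found in stimulated CH12F3 about as often as in another i3CBEs library. The share of i3CBEs top peaks that overlapped a top peak by at least 1 base was 83.8 ± 1.35% in stimulated CH12F3 (SD over 12 pairs of libraries), 84.2 ± 0.737% between i3CBEs libraries (6 ordered pairs) and 84.5 ± 0.959% in unstimulated CH12F3 (9 pairs). Of the stimulated CH12F3 top peaks, 83.2 ± 1.33% were found in i3CBEs (12 pairs) and 86.3 ± 2.16% in another stimulated CH12F3 library (12 ordered pairs). Of the i3CBEs top peaks, the share found was 71.3 ± 4.04% in stimulated and 64.2 ± 2.85% in unstimulated spleen (9 pairs each). All of the 1000 strongest stimulated CH12F3 peaks had a top peak in every i3CBEs list, and 99.8 ± 0.146% of the 5000 strongest did (12 pairs). Pairs of libraries share members, so these SDs describe the pairs and carry no test. Top peaks covered 7.54 to 10.7 Mb in stimulated CH12F3, against 5.53 to 6.31 Mb in i3CBEs. An overlap of 1 base was therefore easier to reach in stimulated CH12F3.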

How the data were processed

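Rad21 peak lists of mouse cells were analysed as the authors deposited them. Per the submitters' processing notes, reads were handled with Bowtie2 and MACS2 on build mm9; their versions and thresholds are not stated there. Each list is of 1 library, and its columns, per the broadPeak format of the deposited files, hold a fold enrichment (a ratio over the control), a −log10 p and a −log10 q per peak. They are the authors' values and were used only to rank or describe peaks within a list.

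From them were computed the 20000 top peaks by −log10 p, their covered percent of 10 kb bins (bins covered in 2 or more libraries), counts in windows of 1 Mb (mean of at least 5 peaks, log2 of count + 1), and merged sites. limma 3.58.1 (R 4.3.3) with a mean-variance trend was fitted over i3CBEs, stimulated and unstimulated CH12F3, and checked on simulated data; calls had a Benjamini-Hochberg adjusted p under 0.05. Single values had two-sided exact permutation tests. Libraries, regions and lists were chosen with earlier results of these data known.

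Named were the covered IgH bins and sites, the 10 called bins of largest difference in each direction, likewise 10 sites by their worst rank and 5 windows by p; others are marked as chosen after their values were seen. No 2 lists shared more than 1.11% of peak starts. No mm9 genome or gene annotation was used here, so no genes or sequences are given and CTCF motifs were not analysed. NIPBL libraries were not used here. Alternatives included 10000 or 40000 top peaks, all peaks, fixed widths, other bin sizes, a replicate block and leaving out each library.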

Additional observations from a re-analysis of the deposited data

Results flagged for a closer look

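In several measures 1 stimulated CH12F3 library stood apart relative to the spread of the other 3, in some by a single peak where the others were tied. For normally distributed values, chance marks about 1 group in 20 this way. That rate does not hold where the other 3 values are tied. In library 1 the median authors' fold of its top peaks was 15.1 and the median −log10 p 40.4, the highest of the group. In library 4, the bin 10:57680001 was covered over 18% and the bin X:30480001 over 2.55%, where the others had 0%. In library 2, the bin 5:15050001 was covered over 7.76%, where the others had 0%. At IgH, library 3 covered 2.61% of the bin 12:114380001, the least of the group. The window from 3:136000001 had 5 top peaks in library 2, where the others had 6. Library 4 had 12 top peaks in the window from 5:24000001 and 8 in that from 16:78000001, where the others had 13 and 7.

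In data outside the comparisons, the i3CBEs lists held 604 or more peaks on sequences beyond the main chromosomes, and each stimulated CH12F3 list 1.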

How the results depend on the processing

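Counts of called bins, higher and lower in i3CBEs, were 41 and 53. They were 0 and 56 with all deposited peaks, 11 and 406 at a −log10 q of 5 or more, 1296 and 174 with equal covered length, 92 and 110 at 400 bp per peak, 95 and 124 scored as covered or not, 66 and 72 for bins covered in 1 or more libraries, 3 and 12 in 4 or more, 67 and 106 at 5 kb, 7 and 11 at 20 kb, 3 and 14 with both lines alone, 72 and 474 with array weights, 40 and 35 with 40000 top peaks, and, added after seeing the data, 33 and 23 without chromosome 16 and 3 and 11 among high code numbers. Leaving out 1 library gave 3 to 72 and 2 to 211. With all deposited peaks, limma called 0 higher bins, with 174 at an unadjusted p under 0.05.

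Windows called, 1 and 13, were 0 and 9 with 10000 top peaks, 53 and 67 with 40000, 10 and 20 with no minimum, 1 and 3 without chromosome 16, 0 and 0 among high code numbers, and 0 to 6 and 5 to 14 leaving out 1 library. The chromosome 14, 16 and X shares kept their direction in every alternative run.

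Same-numbered libraries of i3CBEs and stimulated CH12F3 correlated at 0.103, 0.005 and −0.074, which shows no pairing between those groups. Unstimulated CH12F3 was not in this check. Its libraries 1 to 3 have code numbers 16, 147 and 152, beside 17, 146 and 153 in stimulated CH12F3. Pairing of stimulated with unstimulated libraries thus remains possible, and the main fit leaves it out. A replicate block gave 5 and 2 bins and 5 and 8 windows. The IgH bin at 12:114520001 stayed at 3.60 points, with limma adjusted p = 0.073 under the block, 0.13 with all deposited peaks and 0.077 among high code numbers.

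IgH bins lower without overlap, 1 as reported, were 0 with 10000 top peaks and at 400 bp, 2 with 40000, 6 with all peaks, 5 among high code numbers and 1 to 5 leaving out 1 library. Directions turned at 400 bp for 12:114450001 (3.00 points), 1:85240001 (0.62), 1:87500001 (2.67), 1:85100001 (3.8), constant region cover (0.367 kb) and kappa cover (0.133 kb); with 10000 peaks for 1:87500001 (6.26); with 40000 for 12:114460001 (1.14); with equal length for 14:76550001 (5.12); at a −log10 q of 5 for 6:47690001 (−6.54) and 17:13740001 (−0.58); with all peaks for 6:47690001 (−9.74), 12:86870001 (−6.88) and the number of constant region peaks (−17.8). Kappa peaks, 0.333 apart, differed by −1.75, −7.50 and −206 with 10000, 40000 and all peaks, −5.17 among high code numbers and −3.67 to 4 leaving out 1 library (−2 without i3CBEs library 1).

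Sites in CH12F3 alone were 103 with 10000 and 369 with 40000 top peaks, and sites in i3CBEs alone 243 with 40000. With all peaks, 65.7% of i3CBEs peaks were found in stimulated CH12F3 and 56.5% in another i3CBEs library. The causes were not tested. Depth is unknown, no read counts were used, and i3CBEs lists are shorter on average, so a missing weak peak does not show absence of Rad21.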
